A study of Mus musculus with 20 samples.

Results

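The genes described here are 242 mouse genes of immune signalling and of microglia, the resident macrophages of nervous tissue. They were taken from the 9230 genes that the arrays name, by their symbols. The symbols cover interleukins (Il), chemokines and their receptors (Ccl, Ccr, Cxcl, Cxcr), the mouse major histocompatibility complex (H2), cluster-of-differentiation surface proteins (Cd), Toll-like receptors (Tlr), interferons and their receptors (Ifn), interferon regulatory factors (Irf), Fc receptors (Fcgr, Fcer), C1q, the tumour necrosis factor system (Tnf), Stat factors, colony-stimulating factors (Csf), Aif1 and Ctss. A gene was represented by 1 probe, and where it had several, by the one whose log2 intensity, averaged over the 20 arrays, was highest. 235 members could be tested. C3 and Csf1r, which such a list would usually hold, were not analysed here.

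Total RNA came from 2 pools. The retina pool was from adult mice of strain C57/B6, and the cortex pool from postnatal day 1 mice of strain Swiss-Webster. RNA of each pool was hybridised to 5 one-colour CodeLink arrays (GE Healthcare, formerly Amersham) at a first site and to 5 at site 2, which gave 4 groups of 5 technical replicates. Tissue, strain and age cannot be told apart in this design, and with replicates that are arrays of the same RNA, p-values reflect technical spread alone. In pooled tissue, fewer cells of a type and less RNA per cell cannot be told apart either.

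Immune genes in nervous tissue work as signals between cells. Chemokines, interleukins and tumour necrosis factor ligands are secreted or membrane-bound messengers. Their receptors act through Stat and NF-kB transcription factors, and interferons act through Irf and Stat factors on a large set of antiviral genes. Microglia read many of these signals and carry Fc receptors, C1q and lysosomal proteins. The retina and the developing cortex both contain microglia, and neurons and glia of both make some of the same messengers.

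Intensity has no absolute unit in these data, and 1 is close to the median probe, whose array medians ran from 0.927 to 0.963. The 25th percentile of all values was 0.194. Of the tested members, 68 (28.9%) had all 4 group means under that level and are called dim here, against 17.8% of all tested probes. Members also varied more between replicate arrays than the typical probe, with a median SD of log2 intensity of 0.211 to 0.283 in the 4 groups, against 0.158 to 0.225. The labelled tissues carried their defining genes. The photoreceptor genes Sag, Gnat1 and Rom1 were called higher in retina at both sites, and the cortical genes Neurod6, Tbr1, Sox11 and Bcl11b were called higher in cortex at both. The summed intensity of the 3 photoreceptor genes on the cortex arrays was 1.75 to 9.31 (first site) and 0.457 to 0.658 (site 2), beside 217 to 304 and 398 to 461 on the retina arrays. The part of this photoreceptor signal on the first-site cortex arrays in the results below was not tested.

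The cortex array of site 2 labelled replicate 5 stood apart. Measured against the average of the 4 arrays that share its group, its median distance was 0.459 on the log2 scale over the members and 0.392 over all tested probes, where no other array exceeded 0.236 and 0.184. On it, 36 of 232 members (15.5%) were at least 4-fold above the mean of the other 4 arrays, and 0 were as far below. Over all probes the share was 4.49%. Members already above the 25th percentile of values showed it as well, at 11.5% against 2.47% of other probes. Among the other 19 arrays, the most members that lay 4-fold above their group was 5 (2.14%), on replicate 2 of retina at site 2. The members whose site 2 call changed without replicate 5 of cortex are named where they or that array are described.

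Upstream sequence is shown first for 3 members and for 1 interferon-stimulated gene used for comparison. The 3 are the members called at both sites in which any of the motifs searched was found. That they hold a match is therefore no result. The sequences are the 250 bases before the annotated start of each gene, from RefSeq for assembly GRCm38.p6, written 5′ to 3′ on the gene's strand. Capitals mark a match to the interferon response element core, which is GAAA, any 2 bases and GAAA again, in either orientation. For Tlr3 they mark a match to the NF-kB motif, which is GGGA, any 1 base and TTTCC. The complement inhibitor Cd59a lies at chr2:104095551-104095800 on the plus strand, Aif1 at chr17:35176053-35176302 on the minus strand, the double-stranded RNA receptor Tlr3 at chr8:45410381-45410630 on the minus strand, and Ifit3 at chr19:34583279-34583528 on the plus strand.
Cd59a: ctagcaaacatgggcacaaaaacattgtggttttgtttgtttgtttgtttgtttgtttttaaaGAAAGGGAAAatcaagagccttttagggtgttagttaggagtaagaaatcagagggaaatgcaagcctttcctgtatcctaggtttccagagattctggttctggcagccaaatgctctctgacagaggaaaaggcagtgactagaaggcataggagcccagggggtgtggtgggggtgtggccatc
Aif1: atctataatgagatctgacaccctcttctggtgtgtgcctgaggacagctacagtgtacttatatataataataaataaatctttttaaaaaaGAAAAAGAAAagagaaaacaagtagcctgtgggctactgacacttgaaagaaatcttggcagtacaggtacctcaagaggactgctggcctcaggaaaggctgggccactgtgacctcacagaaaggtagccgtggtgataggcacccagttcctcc
Tlr3: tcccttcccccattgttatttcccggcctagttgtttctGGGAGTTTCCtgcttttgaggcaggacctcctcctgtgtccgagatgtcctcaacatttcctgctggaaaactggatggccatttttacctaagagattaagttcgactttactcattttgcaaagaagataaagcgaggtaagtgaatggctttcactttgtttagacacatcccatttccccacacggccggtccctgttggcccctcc
Ifit3: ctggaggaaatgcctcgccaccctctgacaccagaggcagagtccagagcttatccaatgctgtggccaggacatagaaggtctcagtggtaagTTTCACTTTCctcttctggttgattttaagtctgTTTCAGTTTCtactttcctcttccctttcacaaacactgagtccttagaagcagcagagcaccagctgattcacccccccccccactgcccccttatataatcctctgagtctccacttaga

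The interferon core was found in 14 of the 182 members with a promoter entry (7.69%), against 3.46% of 27025 genes. It was in 1 of 16 members called higher in retina at both sites, which is Cd59a, and in 1 of 13 called higher in cortex at both, which is Aif1. In the list of tested interferon-stimulated genes it was in 10 of 28 (35.7%). The core of the Stat-binding gamma-activated site, TTCNNNGAA, was in 23 of 182 members (12.6%) against 8.13% of all genes, and in 0 of 16 and 0 of 13 of the members called at both sites. The NF-kB motif was in 6 of 182 members (3.3%), among them Ccr3, Csf1, Cxcl1, Il16, Il6 and Tlr3, against 0.414% of all genes. A match is only a match of letters in this window.

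The first comparison asks which of these genes differ between adult retina and newborn cortex, and the second whether another site gives the same answer. At the first site, 29 members were called higher in retina and 24 higher in cortex. A call needed a Benjamini-Hochberg adjusted p under 0.05 in limma, over all probes, and a difference of at least 2-fold. The background over all 10339 tested probes was 11.9% higher and 13% lower in retina, and 24.9% in either direction, against 22.6% of the tested members. At site 2, 26 members were higher in retina and 34 higher in cortex, where the background was 11.1% and 13.5%. In either direction the share was 25.5% of members against 24.6% of probes. The larger number on the cortex side at site 2 did not hold in every setting. It was 29 higher in retina and 26 higher in cortex with quantile normalization, and 19 and 17 with low values raised to the 25th percentile. The members as a group therefore differed between the tissues about as often as any probe did.

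At both sites, 43 members were called in the same direction, 23 higher in retina and 20 higher in cortex, and 0 were called in opposite directions. The background for a call at both sites was 19.8%, with 9.31% higher and 10.5% lower in retina. The counts of the families and lists below are small, and none was tested against the background. These 43 were 81.1% of the first-site calls and 71.7% of the site 2 calls of the members, where all probes had 79.7% and 80.7%. The median log2 difference of the members, retina minus cortex, was 0.06 at the first site and -0.17 at site 2, beside -0.04 and -0.05 over all probes. A further 56 members at the first site and 52 at site 2 had an adjusted p under 0.05 with a difference under 2-fold. Of the 167 members that were not dim, 31.1% and 32.9% were called at the 2 sites, where the probes that were not dim had 28.9% and 28.6%. Of the 68 dim members, 1 and 5 were called, where dim probes had 6.59% and 5.88%.

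**Figure D1:**
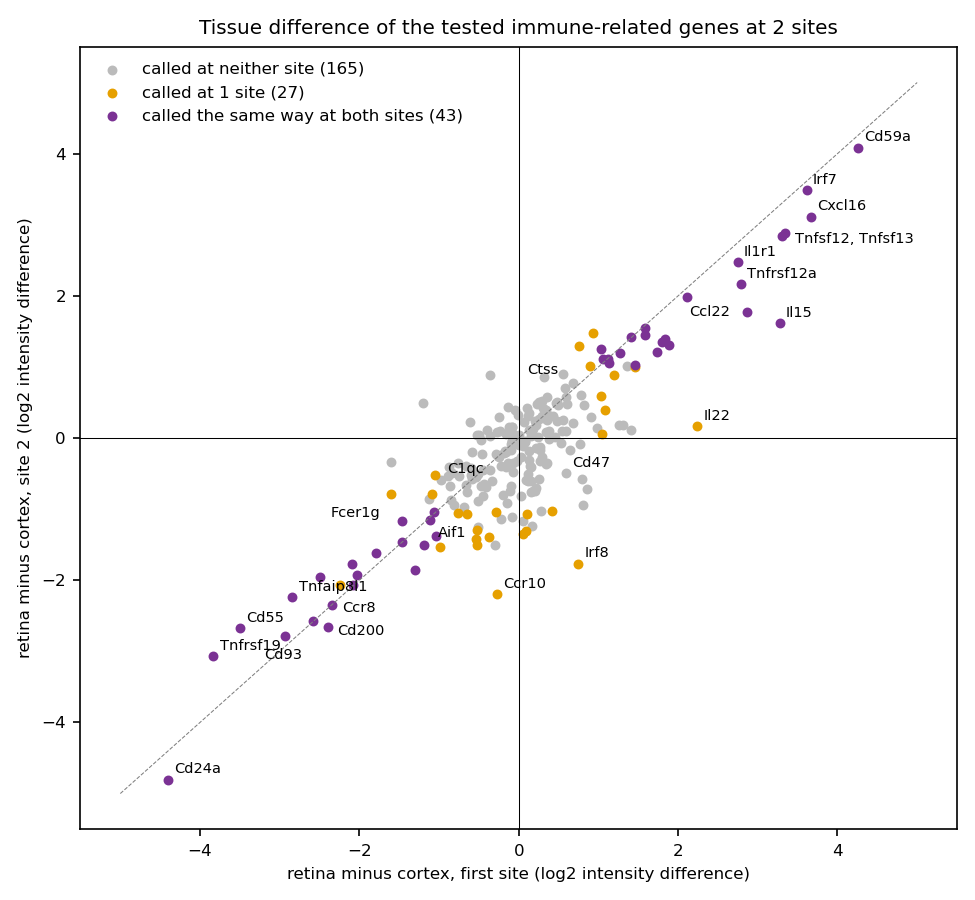
Each point is 1 of the 235 tested members. The x axis is its retina minus cortex log2 difference at the first site and the y axis the same difference at site 2, the dashed line marks equal differences, and colour shows at how many sites it was called. Cd59a and Irf7 lie at the upper right end and Cd24a at the lower left end, close to the line, and most of the members called at 1 site lie below it, among them Il22 and Irf8.

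Among the secreted messengers, chemokines had 4 members higher in retina and 4 higher in cortex at both sites, of 28 tested. Chemokines are small proteins that direct cell migration through G-protein-coupled receptors. The 4 on the retina side were Cxcl16, Ccl22, Cxcl13 and Ccl9, and the 4 on the cortex side were Cxcl12, Ccl4, Ccl27a and Ccl3.

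Cxcl16, a membrane-anchored ligand of Cxcr6, read 1.16, 1.10, 1.16, 1.11 and 1.15 on the 5 retina arrays of the first site and 0.106, 0.0835, 0.0673, 0.0852 and 0.114 on the cortex arrays. At site 2 the retina arrays read 1.03, 1.06, 1.23, 1.07 and 1.07, and the cortex arrays read 0.143, 0.107, 0.142, 0.186 and 0.0773. The tissues did not overlap at either site, and the log2 differences were 3.66 ± 0.176 and 3.12 ± 0.176 (± gives limma's standard error, here and below), with adjusted p = 9.28e-13 and 1.12e-11.

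Ccl22, which attracts T cells through Ccr4, was the chemokine whose tissue difference was called different between the sites. On the retina arrays it read 8.44, 9.92, 9.28, 9.03 and 8.93 at the first site and 3.76, 4.00, 4.15, 4.05 and 3.78 at site 2. On the cortex arrays it read 1.18, 1.28, 1.23, 1.28 and 1.29 and then 1.27, 1.23, 1.25, 1.15 and 0.928. The cortex values nearly coincided between sites, and every retina array of site 2 was below every retina array of the first site. The log2 difference fell from 2.86 ± 0.0779 to 1.77 ± 0.0779, a change of -1.10 with adjusted p = 4.59e-05, and retina remained above cortex on all arrays.

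Cxcl13, the attractant of B cells through Cxcr5, had group means of 0.424 (retina) and 0.0982 (cortex) at the first site, and of 0.289 and 0.0732 at site 2, with log2 differences of 2.11 ± 0.129 and 1.98 ± 0.129. Ccl9 had differences of 1.40 ± 0.188 and 1.42 ± 0.188. Both of these cortex means are near or under the 25th percentile of values, so the folds rest on dim cortex signals, and with low values raised to the 25th percentile Cxcl13 was no longer called at site 2, at 0.57.

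On the cortex side, Cxcl12, the ligand of Cxcr4 that guides migrating neurons and progenitors in the developing brain, read 1.85, 1.44, 2.01, 1.95 and 1.42 on the first-site cortex arrays and 0.275, 0.504, 0.457, 0.448 and 0.470 on the retina arrays. At site 2 it read 2.14, 2.34, 2.24, 2.20 and 1.66 on cortex arrays and 0.568, 0.552, 0.538, 0.497 and 0.609 on retina arrays. The 2 tissues were separate at both sites, with log2 differences of -2.02 ± 0.149 and -1.93 ± 0.149 (adjusted p = 5.15e-10 and 1.1e-09). Its receptor Cxcr4, the chemokine receptor with the highest mean over the arrays, did not reach 2-fold, with log2 differences of -0.29 ± 0.0952 and -0.23 ± 0.0952 and adjusted p = 0.0133 and 0.0462.

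Ccl4, an attractant of macrophages and T cells, read 42.5, 49.0, 42.9, 41.4 and 42.2 on cortex arrays and 13.8, 11.4, 12, 13.2 and 12.6 on retina arrays of the first site. At site 2 the cortex arrays read 34.7, 31.6, 33.6, 32.4 and 37.8 and the retina arrays 11.5, 9.63, 11.1, 11.6 and 11.6. Its log2 differences were -1.79 ± 0.0750 and -1.62 ± 0.0750. The neighbouring gene Ccl3, a related chemokine whose annotated span overlaps Ccl4, had the same direction, at -1.04 ± 0.155 and -1.38 ± 0.155. With low values raised to the 25th percentile, Ccl3 was no longer called at either site, at -0.20 and -0.87. It also fell under 2-fold at the first site with quantile normalization, at -0.81, and without any of 3 retina arrays. Ccl27a, a ligand of Ccr10, was higher in cortex by almost the same amount at both sites, at -1.46 ± 0.0902 and -1.46 ± 0.0902, but its span overlaps the receptor gene Il11ra1. The spans of 31 members overlap another protein-coding gene, among them also Cxcl16, Ccr10, Tnfrsf12a and Tnfaip8l1. Which transcript the probes of these genes read was not tested.

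Of the 14 tested chemokine receptors, 1 was called at the first site, higher in cortex, where 13% of all probes were. It was Ccr8, the receptor of Ccl1. Ccr8 read 0.605, 0.797, 0.699, 0.796 and 0.796 on cortex arrays and 0.193, 0.139, 0.204, 0.0991 and 0.116 on retina arrays of the first site, and 0.904, 0.852, 1.01, 1.00 and 2.73 and 0.173, 0.227, 0.245, 0.234 and 0.270 at site 2. The log2 differences were -2.34 ± 0.265 and -2.35 ± 0.265. At site 2 Ccr1, Ccr10 and Cxcr2 were called higher in cortex too, where 13.5% of all probes were. Without replicate 5 the receptors called numbered 2, Ccr8 and Ccr10, and the share of all probes was 13.7%. The median log2 difference of the 14 receptors was -0.21 at the first site and -0.67 at site 2, or -0.28 without replicate 5.

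Among interleukins, 24 were tested, and 2 were higher in retina and 1 higher in cortex at both sites. Il15, which sustains NK cells and memory T cells, read 0.694, 0.628, 0.728, 0.698 and 0.734 on retina arrays and 0.0620, 0.0548, 0.103, 0.0831 and 0.0656 on cortex arrays of the first site. At site 2 the retina arrays read 0.524, 0.487, 0.517, 0.515 and 0.433 and the cortex arrays 0.0958, 0.0895, 0.0631, 0.0888 and 2.24. Every array except replicate 5 of cortex at site 2 separated the tissues, and that array lay above all the retina arrays. The site 2 difference was 1.62 ± 0.646 with it (adjusted p = 0.0374) and 2.57 without it (adjusted p = 5.6e-11), beside 3.27 ± 0.646 at the first site. The site 2 call was lost on leaving out any of the 9 other arrays of that site, with low values raised to the 25th percentile, at 0.64 (adjusted p = 0.291), and with only the 2 groups of the contrast fitted (adjusted p = 0.131).

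Il34, the second ligand of the Csf1 receptor and a survival factor for microglia, was higher in retina at both sites, with means of 0.401 against 0.120 and of 0.259 against 0.112. Its log2 differences were 1.74 ± 0.226 and 1.21 ± 0.226. With low values raised to the 25th percentile, it was no longer called at site 2, at 0.41. Csf1, the other ligand, was measured among the 7 colony-stimulating genes and receptors. At the first site limma called 0 of these 7, with 3 at an unadjusted p under 0.05, and Csf1 itself had log2 differences of 0.29 ± 0.110 and -0.27 ± 0.110. Csf3r was called higher in cortex at site 2 (limma adjusted p = 0.0453) and was not called without replicate 5, at -0.51. Its call was also lost on leaving out most of the other arrays singly, and with quantile normalization. Csf3, the member of this family with the highest mean, had log2 differences of 0.06 ± 0.0786 and -0.06 ± 0.0786.

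Il3, a growth factor of blood-forming cells, was higher in cortex, at -1.19 ± 0.114 and -1.5 ± 0.114. The interleukin with the highest mean, Il21, had log2 differences of -0.16 ± 0.101 and -0.19 ± 0.101 and was not called. Il22, a cytokine of lymphoid cells, was higher in retina by 2.24 ± 0.686 at the first site and was not called at site 2, at 0.16 ± 0.686. Its site 2 cortex arrays read 0.151, 0.122, 0.0993, 0.0771 and 3.6. The last of these is replicate 5, and without it the difference was 1.17, which was called. Il1rn, the natural antagonist of the IL-1 receptor, was called higher in retina at the first site, at 1.03 ± 0.151, and not at site 2, at 0.59 ± 0.151. With low values raised to the 25th percentile it was not called at the first site either, at 0.73.

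The receptor for interleukin 1, Il1r1, was the clearest of the 20 tested interleukin receptors and accessory genes. It read 0.365, 0.394, 0.428, 0.348 and 0.295 on retina arrays and 0.0484, 0.0378, 0.0338, 0.0904 and 0.0833 on cortex arrays of the first site. At site 2 it read 0.552, 0.503, 0.487, 0.490 and 0.427 on retina arrays and 0.0919, 0.0793, 0.1, 0.116 and 0.0625 on cortex arrays. Retina was above cortex on all arrays, with log2 differences of 2.75 ± 0.233 and 2.48 ± 0.233 and adjusted p = 4.24e-09 and 1.89e-08. All the cortex arrays lay under the 25th percentile of values, and with a floor at that level Il1r1 was not called at the first site, at 0.90.

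Il6st, the gp130 chain shared by the receptors of the interleukin 6 family, was called higher in retina at site 2 only, at 1.29 ± 0.124 beside 0.76 ± 0.124 at the first site. A dimmer probe of the same gene gave 0.50 and -0.15 and was not called. Il2rb, the receptor with the highest mean, had differences of 0.48 ± 0.128 and 0.24 ± 0.128. The 4 receptor or accessory genes called higher in cortex at site 2 were Il1r2, Il1rap, Il7r and Il18rap, of which Il18rap was called without replicate 5. The call of Il18rap ended on leaving out certain other single arrays of that site.

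Of the 8 tested ligands of the tumour necrosis factor family, limma called 2, both higher in retina at both sites. They were Tnfsf12 (TWEAK), which binds the receptor Tnfrsf12a (Fn14), and Tnfsf13 (APRIL), a survival factor of plasma cells. Tnfsf13 read 5.06, 4.97, 5.34, 4.22 and 4.46 on retina arrays and 0.403, 0.602, 0.390, 0.617 and 0.413 on cortex arrays of the first site, and 5.43, 4.80, 4.79, 5.12 and 4.91 and 0.704, 0.721, 0.673, 0.735 and 0.557 at site 2. Tnfsf12 read 6.28, 6.59, 8.65, 6.80 and 6.32 on retina arrays and 0.620, 0.741, 0.731, 0.684 and 0.719 on cortex arrays of the first site, and 8.20, 6.43, 6.95, 7.83 and 6.78 and 0.798, 0.761, 0.788, 0.818 and 2.59 at site 2. No cortex array reached a retina array for either gene. The log2 differences of Tnfsf13 were 3.34 ± 0.126 and 2.89 ± 0.126, and those of Tnfsf12 were 3.30 ± 0.244 and 2.85 ± 0.244. The 2 genes are neighbours that share the annotated readthrough gene Tnfsfm13, so the probes may not be independent, which was not tested.

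Among the 14 tested receptors of this family, 2 were higher in retina and 3 higher in cortex at both sites. Tnfrsf12a, the receptor of Tnfsf12, was on the retina side with its ligand, at 1.21 against 0.175 and 0.986 against 0.219. Its log2 differences were 2.79 ± 0.133 and 2.17 ± 0.133. Tnfrsf10b, a death receptor for TRAIL, had differences of 1.84 ± 0.103 and 1.40 ± 0.103.

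On the cortex side, Tnfrsf19 (TROY), a receptor of neural progenitors, read 1.81, 1.86, 1.45, 1.45 and 1.45 on cortex arrays and 0.131, 0.0754, 0.102, 0.124 and 0.139 on retina arrays of the first site. At site 2 it read 1.5, 1.28, 1.55, 1.41 and 1.19 and 0.186, 0.149, 0.166, 0.181 and 0.144. The lowest cortex array was above every retina array, with log2 differences of -3.83 ± 0.144 and -3.07 ± 0.144 (adjusted p = 2.16e-14 and 6.3e-13). Tnfrsf22, a decoy receptor for TRAIL, differed by -2.50 ± 0.167 and -1.95 ± 0.167, and Tnfrsf11a (RANK), the receptor of the osteoclast factor RANKL, by -2.08 ± 0.210 and -2.06 ± 0.210.

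Of the 6 other tested genes whose symbols begin with Tnf, Tnfaip3 (A20), an inhibitor of NF-kB signalling, was higher in retina, at 1.13 ± 0.0937 and 1.05 ± 0.0937. Without replicate 5 it fell just under 2-fold at site 2, at 0.97. Tnfaip8l1 was higher in cortex, at -2.84 ± 0.152 and -2.24 ± 0.152.

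**Figure D2:**
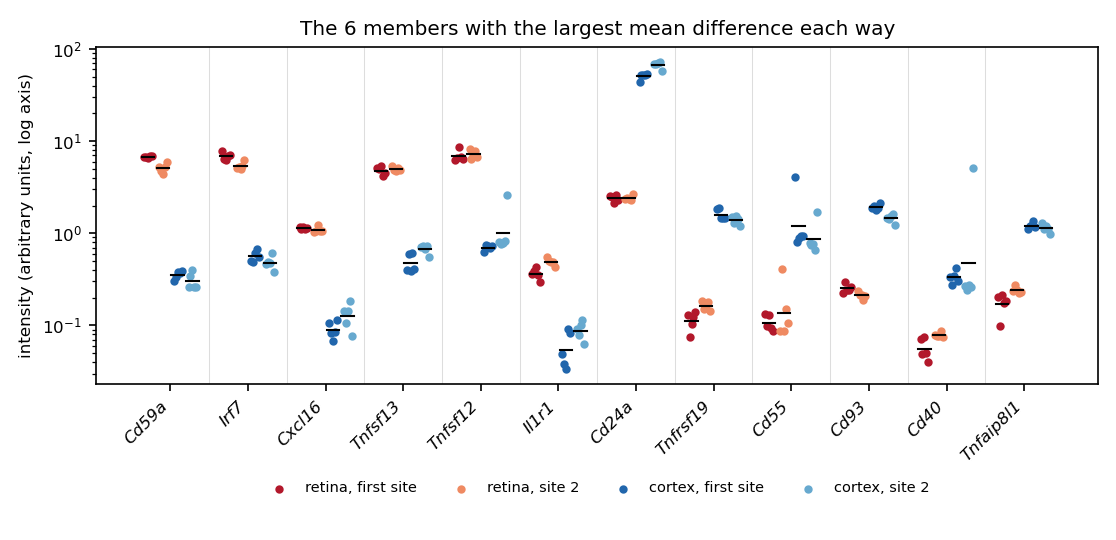
Intensity on a log axis for the 6 members with the largest mean log2 difference on each side among those called at both sites, where each dot is 1 array and each bar the geometric mean of a group of 5 arrays. The retina arrays of the 6 genes on the left lie above every cortex array of the same gene, and the order is the opposite for the 6 on the right. Replicate 5 of cortex at site 2 is the high point of Tnfsf12, at 2.59, and of Cd40, at 5.04.

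Surface proteins with a Cd number were the largest family, with 60 tested, 5 higher in retina and 7 higher in cortex at both sites. The ends of the whole member list were both Cd genes. Cd59a anchors in the membrane and blocks the last step of complement attack. Cd24a is a small glycoprotein abundant on immature neurons.

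Cd59a read 6.76, 6.68, 6.54, 6.92 and 6.94 on retina arrays and 0.307, 0.336, 0.380, 0.366 and 0.392 on cortex arrays of the first site. At site 2 it read 5.20, 4.80, 4.38, 5.24 and 5.99 on retina arrays and 0.259, 0.348, 0.399, 0.259 and 0.263 on cortex arrays. The lowest retina array of the 10 was 4.38 and the highest cortex array 0.399. The log2 differences were 4.25 ± 0.117 and 4.09 ± 0.117, with adjusted p = 2.69e-16 and 4.19e-16. These are about 19.1-fold and 17.0-fold.

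Cd55, which dismantles the complement convertases at an earlier step, went the other way. It read 4.05, 0.795, 0.893, 0.926 and 0.944 on cortex arrays and 0.132, 0.0979, 0.129, 0.0947 and 0.0877 on retina arrays of the first site. Its site 2 readings were 0.791, 0.741, 0.772, 0.658 and 1.71 on cortex arrays and 0.0866, 0.407, 0.0863, 0.152 and 0.105 on retina arrays. Single arrays were far from the rest in 3 of these 4 groups, yet the tissues did not overlap. The log2 differences were -3.49 ± 0.445 and -2.67 ± 0.445, with adjusted p = 1.23e-06 and 3.33e-05. The third membrane regulator in the list, Cd46, had too few values at site 2 for a test, with 1 cortex value there. Cr1l, a further regulator of the convertases from the complement list, was higher in cortex, at -1.90 ± 0.0879 and -1.94 ± 0.0879. Membrane inhibitors of complement were thus called in both directions.

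Cd24a read 44.3, 51.6, 52.4, 52.0 and 54.0 on cortex arrays and 2.53, 2.47, 2.12, 2.61 and 2.32 on retina arrays of the first site. Its site 2 readings were 68.4, 69.3, 70.9, 71.6 and 57.3 on cortex arrays and 2.37, 2.39, 2.35, 2.28 and 2.68 on retina arrays. The groups were far apart, with log2 differences of -4.40 ± 0.0793 and -4.80 ± 0.0793 (adjusted p = 1.76e-18 and 7.18e-19), or about 21.1-fold and 27.9-fold.

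A pair of proteins that signal to microglia and macrophages behaved differently from each other. Cd200, a neuronal ligand that restrains microglia through its receptor, read 10.8, 8.40, 9.29, 10.9 and 9.89 on cortex arrays and 1.82, 1.97, 1.85, 1.87 and 1.84 on retina arrays of the first site. Its site 2 readings were 6.69, 7.80, 7.42, 6.69 and 4.25 and 0.964, 0.739, 1.22, 1.13 and 1.11, and the log2 differences were -2.39 ± 0.148 and -2.66 ± 0.148. The tissues were separate at both sites.

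Cd47, the signal that protects cells from being engulfed, was the member whose tissue difference turned between sites. It read 7.52, 5.88, 5.44, 5.97 and 5.82 on retina arrays and 3.52, 3.44, 4.91, 4.36 and 4.07 on cortex arrays of the first site. Its site 2 readings were 7.14, 6.35, 6.32, 6.13 and 6.5 on retina arrays and 7.70, 9.12, 8.27, 8.70 and 12.6 on cortex arrays. Every retina array was above every cortex array at the first site, and every retina array was below every cortex array at site 2. The log2 difference was 0.60 ± 0.126 and then -0.49 ± 0.126, neither of them 2-fold, and the change of -1.09 had adjusted p = 0.00281. The retina values changed little between sites, and the cortex values rose by 1.18 on the log2 scale. Without replicate 5 the change was -0.98, which is under 2-fold.

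The other Cd genes on the cortex side were Cd93, Cd40, Cd34 and Cd1d1. Cd93 and Cd34 mark endothelium and blood-forming cells, and their differences were -2.93 ± 0.0895 and -2.78 ± 0.0895 for Cd93, and -2.09 ± 0.143 and -1.78 ± 0.143 for Cd34. Cd93 was tight between arrays, with cortex values of 1.86, 1.97, 1.79, 1.86 and 2.13 and retina values of 0.222, 0.298, 0.243, 0.242 and 0.260 at the first site. Cd40, a co-stimulatory receptor of antigen-presenting cells, differed by -2.59 ± 0.586 and -2.57 ± 0.586. Its cortex arrays of site 2 read 0.266, 0.241, 0.273, 0.261 and 5.04, and without the last of them the difference was -1.72, which was still called. With low values raised to the 25th percentile Cd40 was not called at either site, at -0.78 (adjusted p = 0.325) and -1.28 (adjusted p = 0.0827). Cd1d1, which presents lipids, differed by -1.06 ± 0.129 and -1.04 ± 0.129. With quantile normalization Cd1d1 was under 2-fold at both sites, at -0.88 and -0.87, and at site 2 it was also under 2-fold with low values raised to the 25th percentile, at -0.955, without replicate 4 of retina, at -0.995, and without replicate 2 of cortex, at -0.95.

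Of the markers of endothelium fixed as a separate list, 8 were tested, and 3 were higher in cortex at both sites (Tek, Cldn5 and Tie1) and 1 higher in retina (Kdr). The summed intensity of the list was 15.6 to 19.2 on cortex arrays and 13.2 to 14.5 on retina arrays at the first site, and 15.7 to 18.7 and 13.4 to 15.2 at site 2. Most of each sum came from Kdr and Cldn5, which went opposite ways. Their first-site means were 8.69 and 2.56 in retina and 1.95 and 10.4 in cortex. The part of endothelium in the values of Cd93 and Cd34 was not tested.

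The retina side held Cd36, Cd164, Cd8b1 and Cd6 beside Cd59a. Cd164, a sialomucin of many cells, differed by 1.03 ± 0.0783 and 1.25 ± 0.0830, and with quantile normalization by 0.92 at the first site, which is under 2-fold. Cd8b1, a T cell co-receptor chain, differed by 1.89 ± 0.218 and 1.30 ± 0.218, and Cd6, also of T cells, by 1.46 ± 0.152 and 1.03 ± 0.152. With low values raised to the 25th percentile Cd8b1 was under 2-fold at site 2, at 0.92. Cd6 was under 2-fold at site 2 without replicate 5 of cortex, at 0.95, and without replicate 3 or 5 of retina, at 0.99 and 0.97. Cd36, a scavenger receptor, depended on single arrays. Its difference was 1.59 ± 0.586 and 1.45 ± 0.586 (adjusted p = 0.0256 and 0.0391), and 1 retina array of site 2, replicate 2, read 3.97. Without that array the site 2 difference was 0.66 and was not called, and without replicate 5 of cortex it was 1.29 with adjusted p = 0.0844. Leaving out any of 3 other cortex arrays of site 2, or any of 3 first-site arrays, also ended the call at that site, and with low values raised to the 25th percentile it was called at neither, at 0.34 and 1.06. The Cd gene with the highest mean, Cd81, was not called, at 0.29 ± 0.0997 and 0.53 ± 0.106.

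Of the 13 tested markers of T, B and NK cells outside the rule, 1 was higher in retina at both sites (Zap70) and 1 higher in cortex (Blk). At site 2 alone the counts were 1 and 2, and without replicate 5 they were 0 and 2. Their summed intensity on retina and cortex arrays overlapped at the first site, at 14.9 to 17.5 and 14.8 to 18.3. At site 2 it did not overlap, with 9.58 to 11.9 on retina arrays and 12.2 to 19.7 on cortex arrays, and 4 of the 13 were under the 25th percentile of values in all groups. Gzma, which was not called, was the brightest of the list. Its means were 12.55 (retina) and 12.63 (cortex) at the first site, and 6.82 and 7.34 at site 2. The part of lymphocytes in the Cd8b1 and Cd6 values was not tested.

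Of the 7 tested interferon regulatory factors, 2 were called higher in retina at both sites, Irf7 and Irf3. All 7 had log2 differences above 0 at the first site, where the lowest was 0.38, and 4 of them an unadjusted p under 0.05. Irf3 is the constitutive factor that starts the type I interferon response and Irf7 the inducible factor that amplifies it. Irf7 read 7.89, 6.40, 6.24, 6.84 and 6.99 on retina arrays and 0.496, 0.492, 0.606, 0.673 and 0.553 on cortex arrays of the first site. The readings at site 2 were 5.12, 5.19, 4.93, 5.31 and 6.26 on retina arrays and 0.463, 0.485, 0.476, 0.614 and 0.382 on cortex arrays. The tissues were far apart at both sites, at 3.61 ± 0.116 and 3.48 ± 0.116 (adjusted p = 2.11e-15 and 3.84e-15), which is about 12.2-fold and 11.2-fold.

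Irf3 differed by 1.27 ± 0.116 and 1.19 ± 0.116. Irf1, which is induced by interferon gamma, differed by 0.89 ± 0.131, just under 2-fold, and 1.02 ± 0.131, and by 0.91 at site 2 without replicate 5. Irf8, a factor of microglia and myeloid cells, was dim in both tissues at the first site, at 0.0544 and 0.0323. It was called higher in cortex at site 2 (limma adjusted p = 0.0482), where the cortex arrays read 0.522, 0.0635, 0.0634, 0.0370 and 1.30, and was not called without replicate 5. The call of Irf8 was also lost on leaving out most of the other arrays singly, every first-site array among them, and with quantile normalization. The median log2 difference of the 7 factors was 0.89 at the first site and 0.18 at site 2, or 0.91 without replicate 5.

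Interferon receptors and Stat factors added Ifngr1 and Stat5b on the retina side at both sites. Ifngr1, the ligand-binding chain of the interferon gamma receptor, had means of 1.65 against 0.476 and of 1.46 against 0.570, and differed by 1.80 ± 0.142 and 1.35 ± 0.142. Ifnar1, a chain of the type I receptor and the member of this family with the highest mean, was not called, at -0.22 ± 0.105 and -0.39 ± 0.112. Stat5b differed by 1.58 ± 0.170 and 1.54 ± 0.170, but its cortex means of 0.0493 and 0.0828 were low, and with low values raised to the 25th percentile the difference was gone at the first site and 0.31 at site 2.

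Stat3, which acts below gp130, read 4.82, 4.90, 4.98, 5.49 and 6.70 on retina arrays and 3.14, 2.70, 2.75, 2.59 and 2.87 on cortex arrays of the first site. The readings at site 2 were 8.57, 7.97, 8.46, 8.55 and 8.37 on retina arrays and 3.45, 3.24, 2.94, 3.03 and 2.53 on cortex arrays. The difference was just under 2-fold at the first site, at 0.93 ± 0.0938, and was called at site 2, at 1.47 ± 0.0938. A second, dimmer probe gave 1.05 and 1.21 and was called at both sites. Stat4 rested on low values, with a first-site difference of -2.24 ± 0.878 (adjusted p = 0.0348) and means of 0.0221 and 0.104. The site 2 difference was -2.06 ± 0.878 (adjusted p = 0.0502). It included replicate 5 of cortex, which read 4.58 where the other cortex arrays of site 2 read 0.0980 to 0.109. The first-site call was lost on leaving out any of 5 first-site arrays, with quantile normalization (adjusted p = 0.0699), and with low values raised to the 5th or the 25th percentile. Over the 6 tested Stat genes the median log2 difference was 0.91 at the first site and 0.75 at site 2, or 0.91 there without replicate 5.

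Of 34 tested interferon-stimulated genes outside the rule, limma called 11 higher in retina and 0 lower at the first site, where 17 and 2 had an unadjusted p under 0.05, and 8 were higher and 1 lower at site 2, where 11 and 6 had one. The background was 11.9% and 11.1% of all probes higher and 13% and 13.5% lower at the 2 sites. Without replicate 5 the site 2 counts were 10 and 0. The median log2 difference of this list was 0.55 and 0.19, beside -0.04 and -0.05 over all probes. The 7 called higher at both sites were Ifit3, Oasl2, Irgm1, Psmb8, Tap2, Tapbp and Ifi35. Ifit3, an antiviral protein, had means of 3.06 (retina) and 0.121 (cortex) at the first site, and of 2.62 and 0.181 at site 2, which are log2 differences of 4.66 ± 0.225 and 3.85 ± 0.225. Oasl2 differed by 3.04 ± 0.112 and 2.62 ± 0.112. Psmb8, Tap2 and Tapbp make and load peptides for class I antigen presentation, and they differed by 2.03 ± 0.171, 2.42 ± 0.320 and 2.46 ± 0.130 at the first site and by 2.14 ± 0.171, 1.32 ± 0.320 and 2.06 ± 0.130 at site 2. Other listed genes of the same process did not share this. Psmb10, also a subunit of the immunoproteasome, was lower in retina with a difference under 2-fold, at -0.92 ± 0.0724 and -0.96 ± 0.0724. Not called were Tap1, at 0.17 ± 0.305 and 0.39 ± 0.305, Psmb9, at 1.77 ± 0.753 and 0.22 ± 0.753, and B2m, the light chain of class I molecules, at 0.18 ± 0.0905 and 0.38 ± 0.0905.

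Toll-like receptors gave 1 call at both sites among 7 tested, 4 of which were dim. Tlr3, the receptor of double-stranded RNA, read 0.409, 0.349, 0.312, 0.348 and 0.265 on retina arrays and 0.165, 0.184, 0.130, 0.126 and 0.168 on cortex arrays of the first site. The readings at site 2 were 0.244, 0.237, 0.222, 0.273 and 0.255 and 0.114, 0.106, 0.0974, 0.143 and 0.112. Retina was above cortex on all arrays at both sites, at 1.12 ± 0.128 and 1.11 ± 0.128, and with low values raised to the 25th percentile Tlr3 was not called, at 0.78 and 0.34. Tlr9, the member with the highest mean, differed by 0.13 ± 0.0887 and 0.11 ± 0.0887 and was not called.

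Below these receptors, a list of 39 tested genes of JAK-Stat and NF-kB signalling had 6 higher in retina and 5 higher in cortex at the first site, and 5 in each direction at site 2. Over all probes, 11.9% and 11.1% were higher in retina at the 2 sites, and 13% and 13.5% higher in cortex. The adaptor Myd88, used by most Toll-like receptors and by Il1r1, was higher in retina at both sites, at 1.28 ± 0.104 and 1.35 ± 0.104, as was the NF-kB inducing kinase Map3k14, at 2.18 ± 0.123 and 1.91 ± 0.123. Pias1, Traf2 and Traf5 were higher in retina at both sites too. On the cortex side were the signalling adaptor Traf4, at -3.72 ± 0.118 and -3.60 ± 0.125, the inhibitor Socs2, at -1.85 ± 0.0890 and -1.97 ± 0.0890, and the kinase Map3k7, at -1.08 ± 0.111 and -1.19 ± 0.111. The median difference of the list was -0.01 and -0.09.

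Antigen presentation genes of the H2 complex were mostly dim. Of 17 tested, 9 were dim, and 1 was higher in retina and 1 higher in cortex at both sites. The gene on the retina side was H2-Ke6, at 1.06 ± 0.1 and 1.11 ± 0.1, a steroid dehydrogenase that lies in the complex and does not present antigen. With quantile normalization it was under 2-fold at the first site, at 0.95. The gene on the cortex side was H2-Q5, at -1.31 ± 0.139 and -1.86 ± 0.139, which RefSeq lists as a transcribed pseudogene. H2 class I genes are near-identical copies, so its probe may read more than 1 of them. H2-T23, the mouse counterpart of HLA-E, was called higher in retina at the first site, at 1.20 ± 0.145, and not at site 2, at 0.89 ± 0.145, just under 2-fold.

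**Figure D3:**
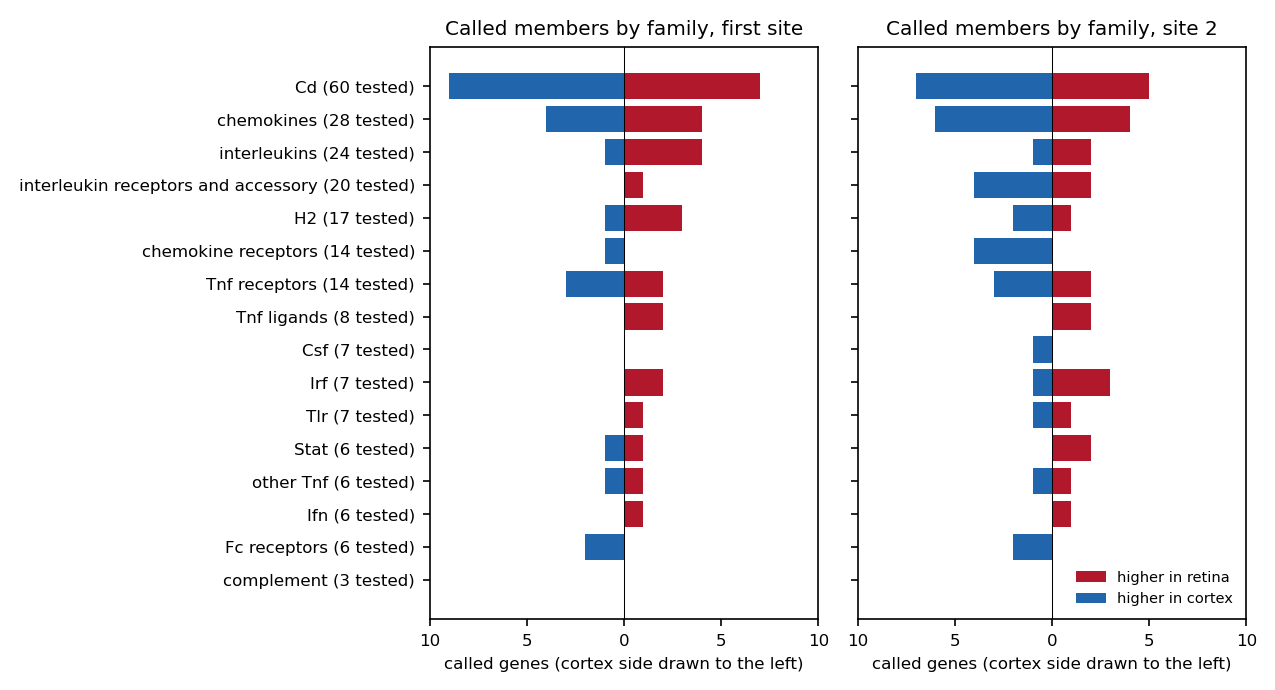
Bars count the members of each symbol family called at least 2-fold different with adjusted p under 0.05 in limma, at the first site on the left and at site 2 on the right. Bars to the right of 0 are higher in retina and bars to the left are higher in cortex. Of the 14 chemokine receptors, 1 and then 4 were called on the cortex side, where 13% and 13.5% of all probes were. The 3 C1q genes have no bar.

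Of the members that mark microglia, Aif1 and Fcer1g were called higher in cortex at both sites, and Ctss and Cd14 read higher in retina. Aif1 (Iba1), a calcium-binding protein used to stain microglia, read 0.915, 0.911, 0.997, 1.03 and 0.976 on cortex arrays and 0.439, 0.453, 0.444, 0.482 and 0.412 on retina arrays of the first site. The readings at site 2 were 0.682, 0.691, 0.667, 0.778 and 0.536 on cortex arrays and 0.304, 0.293, 0.302, 0.295 and 0.306 on retina arrays. Cortex was above retina on all arrays of each site, at -1.11 ± 0.0790 and -1.15 ± 0.0790 (adjusted p = 3.1e-10 and 2.02e-10).

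Fcer1g, the signalling chain shared by activating Fc receptors, had the same direction, at -1.47 ± 0.0955 and -1.17 ± 0.0955. The 5 cortex arrays read 0.630, 0.622, 0.644, 0.658 and 0.565 and the 5 retina arrays 0.237, 0.211, 0.213, 0.249 and 0.220 at the first site. Fcgr3, an activating receptor for immunoglobulin G, was the member of the family with the highest mean. It was called at the first site, at -1.08 ± 0.101, and not at site 2, at -0.79 ± 0.101. Fcgr1, the high-affinity receptor, was called at site 2, at -1.54 ± 0.390 and at -1.03 without replicate 5, and not at the first site, at -0.99 ± 0.390. Its site 2 call ended with low values raised to the 25th percentile, at -0.71. Fcgr2b, the inhibitory receptor, was dim and not called, at -0.44 ± 0.430 and -0.65 ± 0.430. Fcgrt, the neonatal Fc receptor, was not called, at -0.36 ± 0.220 and -0.44 ± 0.220.

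C1q starts the classical complement pathway, and in the brain microglia are its main source. C1qa, C1qb and C1qc were each lower in retina on all arrays with a value and none was 2-fold different. The first-site differences were -0.41 ± 0.141, -0.59 ± 0.0815 and -0.98 ± 0.125, with adjusted p = 0.0175, 3.26e-06 and 1.86e-06. The site 2 differences were -0.68 ± 0.141, -0.42 ± 0.0815 and -0.58 ± 0.132. C1qc was near the threshold at the first site, and leaving out any of 3 first-site arrays in turn brought it past 2-fold, at -1.01 to -1.02.

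Cd68, a lysosomal protein of macrophages, differed by -0.59 ± 0.0969 and -0.58 ± 0.0969. Ctss, a lysosomal protease of the same cells, differed in the other direction. It read 4.56, 5.19, 5.12, 4.88 and 4.40 on retina arrays and 2.75, 2.97, 3.02, 3.16 and 3.14 on cortex arrays of the first site, and 3.28, 4.53, 2.99, 3.54 and 3.00 and 2.09, 2.23, 1.90, 2.10 and 1.72 at site 2. Its log2 differences were 0.68 ± 0.102 and 0.78 ± 0.102, with no overlap between the tissues and no 2-fold difference. Cd14, a co-receptor for bacterial lipopolysaccharide, was also higher in retina, at 1.46 ± 0.110 and 1.00 ± 0.110, and the site 2 value fell just short of 2-fold. The markers of this cell type did not all share a direction.

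**Figure D4:**
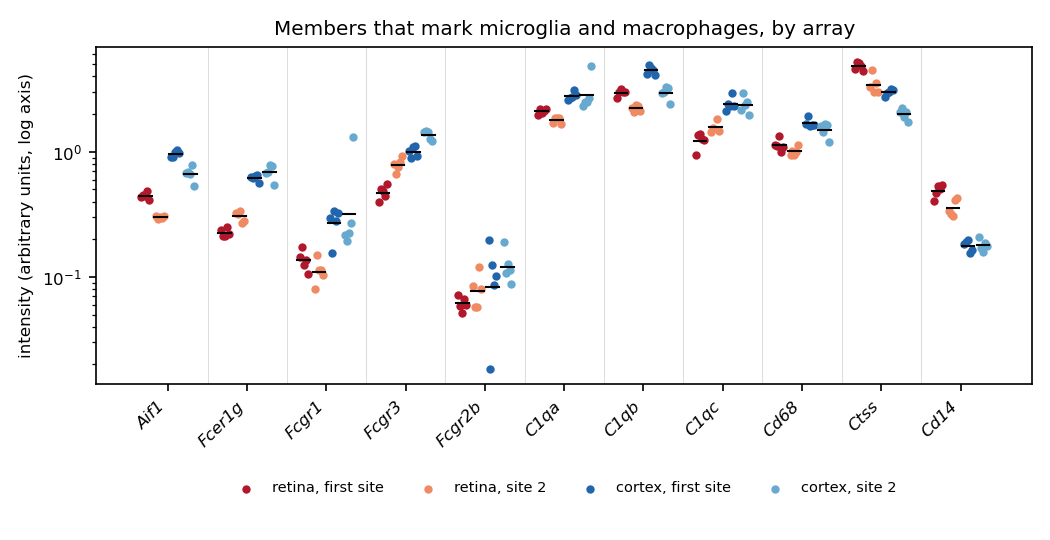
Intensity on a log axis of 11 members that mark microglia and macrophages, where each dot is 1 array and each bar the geometric mean of a group of 5 arrays. Aif1, Fcer1g, Fcgr3, the C1q genes and Cd68 lie higher in cortex, and Ctss and Cd14 lie higher in retina, at both sites. Replicate 5 of cortex at site 2 is the high point of Fcgr1, at 1.30, and of C1qa, at 4.86.

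Other markers of microglia and macrophages, outside the rule, numbered 12 tested. At the first site 1 was higher in retina and 3 higher in cortex, and at site 2 the counts were 1 and 5, or 1 and 4 without replicate 5. Over all probes, 11.9% and 11.1% were higher in retina at the 2 sites, and 13% and 13.5% higher in cortex. The median log2 difference of the list was -0.61 and -0.68. The lysozymes Lyz1 and Lyz2 were higher in cortex at both sites, at -1.44 ± 0.209 and -1.54 ± 0.365 at the first site, and Tyrobp, the adaptor of Trem2, was called at site 2, at -1.37 ± 0.102 beside -0.80 ± 0.102. Adgre1 was called higher in cortex at the first site, at -1.42 ± 0.211 beside -0.93 ± 0.211. Ly86 was called higher in cortex at site 2, at -1.03 ± 0.0939 beside -0.94 ± 0.0939. So was Ptprc, which was dim, at -2.96 ± 1.18 beside -0.57 ± 1.18. Selplg was higher in retina, at 2.01 ± 0.148 and 1.89 ± 0.148. The summed intensity of the list was 9.23 to 10.6 on retina arrays and 11.7 to 13 on cortex arrays of the first site, and 10.5 to 11.6 and 12.1 to 14.3 at site 2, and 3 of the 12 were under the 25th percentile of values in all groups. Most of each sum came from Gpr34 and Spi1, which were not called. Their first-site means were 4.78 and 2.29 in retina and 5.48 and 2.68 in cortex.

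Of the 5 tested markers of macrophages at the borders of the brain, Mrc1, Pf4 and F13a1 were higher in cortex at both sites. The other 2 were not called, Cbr2 at -0.64 ± 0.114 and -0.46 ± 0.114, and Lyve1 at 0.04 ± 0.0962 and 0.32 ± 0.0962. Pf4 had means of 0.0869 (retina) and 2.07 (cortex) at the first site, and of 0.136 and 1.94 at site 2, or log2 differences of -4.58 ± 0.150 and -3.84 ± 0.150. The summed list was 2.06 to 2.34 on retina arrays and 5.77 to 6.32 on cortex arrays at the first site, and 1.90 to 3.08 and 4.46 to 5.70 at site 2.

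All 4 tested markers of connective tissue and meninges (Lum, Dcn, Col1a1 and Col1a2) were higher in cortex at both sites, with summed intensity of 0.430 to 0.486 on retina arrays and 4.10 to 4.69 on cortex arrays at the first site, and of 0.422 to 0.491 and 4.6 to 6.03 at site 2. The red cell gene Hba-a1 was higher in cortex too, at -1.86 ± 0.0949 and -2.41 ± 0.0949. Of 9 tested markers of granulocytes and mast cells, 1 was called at each site, higher in cortex, and it was not the same gene. The background was 13% and 13.5% of all probes. At the first site it was S100a8, at -1.78 ± 0.208 beside -0.76 ± 0.208 at site 2. At site 2 it was Camp, at -1.01 ± 0.308 beside -0.33 ± 0.308 at the first site. Of 5 tested astrocyte markers, 2 were higher in retina at both sites, Aqp4 and Slc1a2, and Aldh1l1 was higher in cortex at site 2, at -1.13 ± 0.327 beside -0.33 ± 0.309. The parts of border macrophages, meninges, blood and astrocytes in the values of Cd93, Fcer1g, Aif1 and the other members were not tested.

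Complement genes outside the rule had 3 of 20 tested higher in retina and 3 higher in cortex at both sites. Vtn and Clu, soluble inhibitors of the terminal complex that have other roles as well, were higher in retina, at 3.64 ± 0.0967 and 3.75 ± 0.0967 for Vtn and 2.44 ± 0.0832 and 2.22 ± 0.0832 for Clu. C4b, a component of the classical pathway, was higher in retina at 1.80 ± 0.425 and 1.07 ± 0.400. The protease Masp1 was higher in cortex at -2.94 ± 0.147 and -2.64 ± 0.147, with C3ar1, the receptor of C3a, and Cr1l.

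In 27 cases a member was called at 1 site and not at the other, which is not a test of a difference between the sites. With all arrays, a change of the tissue difference between sites was called for Ccl22 and Cd47, which are not among the 27. At the first site only, 6 were higher in retina (background 2.57%) and 4 higher in cortex (2.48%). At site 2 only, 3 were higher in retina (1.75%) and 14 higher in cortex, where the background was 2.99% of all probes. The 3 were Stat3, Il6st and Irf1. The 14 were Ccl6, Ccr1, Ccr10, Csf3r, Cxcl1, Cxcr2, Fcgr1, H2-DMb2, Il18rap, Il1r2, Il1rap, Il7r, Irf8 and Tlr1, and 11 of them had both first-site means under the 25th percentile of values. None of the 14 was called at site 2 with low values raised to the 25th percentile.

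Replicate 5 of cortex at site 2 was high for many of these 14. Ccr10, the receptor of Ccl27a, read 0.265, 0.0839, 0.0765, 0.140 and 1.79 on the cortex arrays of site 2 and 0.0542, 0.0369, 0.0597, 0.0692 and 0.0254 on the retina arrays. Il7r, the receptor of interleukin 7, read 0.117, 0.138, 0.139, 0.252 and 2.13 on those cortex arrays. Without replicate 5, 7 of the 14 were still called higher in cortex, Ccl6, Ccr10, Cxcl1, Fcgr1, H2-DMb2, Il18rap and Tlr1. Among these, Ccl6, H2-DMb2, Il18rap and Tlr1 lost the call on leaving out certain other single arrays of site 2. Of the 7 not called without replicate 5, Irf8 had the largest remaining difference, at -1.01, with adjusted p = 0.156. The calls of Irf8, Csf3r and Il7r were also lost on leaving out most of the other arrays singly. Over all members the site 2 counts without it were 24 higher in retina and 29 higher in cortex, with a background of 10.5% and 13.7%. The members called only without it were Stat5a, higher in retina at 2.05 beside 1.02, Il22, also higher in retina, and, higher in cortex, Cd53, at -1.04 beside -0.97, and H2-Eb1, at -1.03 beside -0.89.

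**Figure D5:**
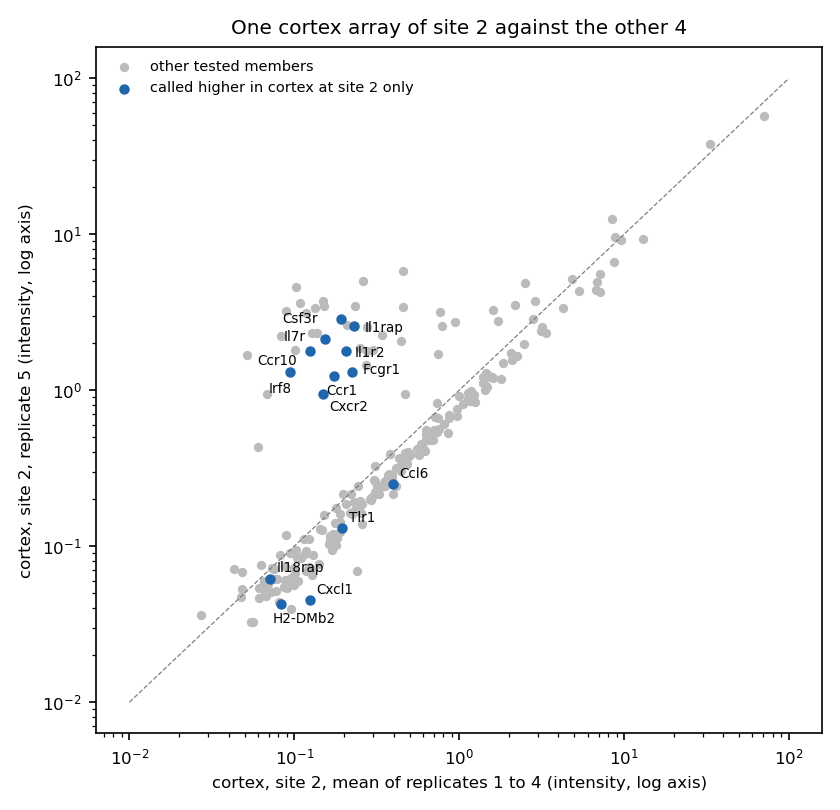
Each point is 1 of 232 tested members. The x axis is its mean intensity on replicates 1 to 4 of cortex at site 2 and the y axis its intensity on replicate 5, both log axes, and the dashed line marks equality. Most members lie just below the line, with a median log2 distance of -0.35, and 36 lie at least 4-fold above it. Of the 14 members called higher in cortex at site 2 only, drawn in blue, 9 are in the upper cluster.

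The last comparison set the sites against each other within a tissue. In retina, 6 members were called, 4 higher and 2 lower at site 2, against a background of 6.24%, with 4.79% higher and 1.45% lower. The 2 lower were Ccl22, at -1.21, and Cd80, at -1.19, and the 4 higher were Ccl21a, Cd86, Cd8a and Cd96. In cortex, 18 members were called, all higher at site 2, against a background of 7.21% in either direction, with 5.29% higher and 1.92% lower. All but Cd47 of these 18 had a first-site cortex mean under or near the 25th percentile of values. Without replicate 5 the count was 15, also all higher, of which 12 were among the 18. It was 11 without replicate 1 of cortex at the first site. It was 3 with low values raised to the 25th percentile, 5 with quantile normalization and 7 with only the groups of the contrast fitted. The median log2 change in cortex was 0.29 over the members and 0.08 over all probes.

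The difference between tissues itself changed between sites by the same criteria for 2 members, Ccl22 and Cd47, both with a lower value at site 2. The background was 0.725% of all probes, with 0.455% lower and 0.271% higher. Without replicate 5 of cortex at site 2 there were 4, Ccl22, Cd72, H2-Oa and Il22, and without replicate 5 of retina at the first site there were also 4. A further 4 members had an adjusted p under 0.05 for this change and a size under 2-fold, among them Stat3, at 0.54, and Tnfrsf19, at 0.76.

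The 5 retina and 5 cortex arrays did not overlap for 55 members with retina higher and 42 with retina lower at the first site, where all probes had 26.2% and 27.1%. At site 2 the counts were 39 and 46, where all probes had 24.0% and 24.3%. The 7 members left without a test were Ccl17, Cd46, Cd84, H2-DMa, Irf4, Tnfrsf18 and Tnfrsf21, each of which had values on fewer than 3 of the 5 arrays in at least 1 group. For 6 of them the blank values were at site 2, and for Tnfrsf21 they were at the first site.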

How the data were processed

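RNA of 2 pools was measured on 20 one-colour CodeLink arrays, 5 technical replicates of each pool at each of 2 sites, per the labels. The deposited values are linear intensities of 10500 probes. Array software, background step and scaling: not given in the sources used here. By their distribution, values look background-subtracted (143 are at or below 0) and scaled per array, and log2 array medians differ by at most 0.0594, so no normalization was added. Per the labels' protocols, labelling was that of the CodeLink Expression Assay. No detection calls were used, so intensity over background limits the precision of dim probes in a way that was not measured.

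Values at or below 0 were treated as missing and log2 taken. Probes with a value on at least 3 of 5 arrays in each group were tested (10339; 161 were not). A 4-group model was fitted with limma 3.58.1 in R 4.3.3 (lmFit, eBayes; 16 residual and 2.16 prior degrees of freedom), with 5 contrasts, 2-sided p-values and Benjamini-Hochberg adjustment over all tested probes. Called means adjusted p under 0.05 and at least 2-fold. The procedure was tested on simulated data. Probe names come from the platform annotation, and 240 of 242 members matched the RefSeq gene table of GRCm38.p6, with 0 symbols changed. Members were the genes matching the symbol rule, with probes of several symbols left out (1). Named with values were members called at both sites, members that mark microglia, the member with the highest mean of each family, members whose difference between sites was called, and members called at 1 site by count with the largest on each side. Cd248, H2-Q7 and other members called once are given by count. Ifit3, Stat5a, Csf1 and the other genes named from lists or counts were chosen after their values were seen. The members and lists were chosen with earlier results of these data known. Means are geometric. The same replicate numbers in different groups mark no shared sample in the labels, and deviations of same-numbered arrays had correlations of -0.107 to 0.0773. No 2 arrays held identical values. Blank values numbered 22 to 39 per first-site array and 152 to 217 per site 2 array.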

Additional observations from a re-analysis of the deposited data

Results flagged for a closer look

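In 46 of the 340 groups of 4 or 5 values looked at among the named members (13.5%), the highest or the lowest array was farther from the rest than Dixon's critical value. For genes not chosen by their values, chance gives about 1 in 20. The named members include those called at 1 site only, some of which were not called without replicate 5. The share therefore cannot be compared with that rate. Of the 46, 22 fell on replicate 5 of cortex at site 2, 16 of them high. Without it the site 2 difference of retina minus cortex was -2.05 for Ccr8, -2.43 for Cd55, 3.19 for Tnfsf12, -1.86 for Tnfrsf11a, -2.81 for Cd200, -4.86 for Cd24a, -2.01 for Cxcl12, -1.55 for Ccl27a and 1.01 for H2-Ke6 on the log2 scale, and these 9 were still called.

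On that array the high readings were C1qa at 4.86 (others 2.34 to 2.70), Ccr1 at 1.23 (others 0.157 to 0.188), Ccr8 at 2.73 (others 0.852 to 1.01), Cd40 at 5.04 (others 0.242 to 0.273), Cd55 at 1.71 (others 0.658 to 0.791) and Csf3r at 2.85 (others 0.163 to 0.210). Also high on it were Cxcr2 at 0.947 (others 0.131 to 0.177), Fcgr1 at 1.30 (others 0.194 to 0.267), Il15 at 2.24 (others 0.0631 to 0.0957), Il1r2 at 1.79 (others 0.191 to 0.232) and Il1rap at 2.57 (others 0.191 to 0.268). The remaining high readings were Il22 at 3.6 (others 0.0771 to 0.151), Il7r at 2.13 (others 0.117 to 0.252), Stat4 at 4.58 (others 0.0980 to 0.109), Tnfrsf11a at 0.951 (others 0.429 to 0.528) and Tnfsf12 at 2.59 (others 0.761 to 0.818). The low readings on it were Ccl27a at 9.36 (others 12.7 to 13.6), Cd200 at 4.25 (others 6.69 to 7.80), Cd24a at 57.3 (others 68.4 to 71.6), Csf3 at 6.67 (others 8.47 to 9), Cxcl12 at 1.66 (others 2.14 to 2.34) and H2-Ke6 at 2.33 (others 3.24 to 3.45).

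In retina at the first site, high readings were found for Cd47 at 7.52 on replicate 1 (others 5.44 to 5.97), Cd81 at 66.3 on replicate 1 (others 51.2 to 53.9), Il1r2 at 0.205 on replicate 1 (others 0.125 to 0.138) and Tlr9 at 2.03 on replicate 3 (others 1.76 to 1.83). In retina at the first site, a further high reading was found for Tnfsf12 at 8.65 on replicate 3 (others 6.28 to 6.80). In retina at the first site, low readings were found for Cxcl12 at 0.275 on replicate 1 (others 0.448 to 0.504), Tlr1 at 0.0706 on replicate 2 (others 0.0848 to 0.0912), Tnfaip8l1 at 0.0992 on replicate 2 (others 0.177 to 0.215) and Tnfrsf11a at 0.0961 on replicate 5 (others 0.133 to 0.152). In cortex at the first site, high readings were found for Ccl4 at 49.0 on replicate 2 (others 41.4 to 42.8), Cd55 at 4.05 on replicate 1 (others 0.795 to 0.944), Cd68 at 1.94 on replicate 2 (others 1.60 to 1.66) and Stat5b at 0.0813 on replicate 5 (others 0.0394 to 0.0482). In cortex at the first site, low readings were found for Cd24a at 44.3 on replicate 1 (others 51.6 to 54.0), Fcgr1 at 0.155 on replicate 2 (others 0.280 to 0.337), Il2rb at 2.46 on replicate 1 (others 2.72 to 2.80) and Tnfrsf11a at 0.362 on replicate 1 (others 0.598 to 0.657). In retina at site 2, high readings were found for Cd36 at 3.97 on replicate 2 (others 0.213 to 0.341), Cd40 at 0.0873 on replicate 4 (others 0.0756 to 0.0787), Cxcl16 at 1.23 on replicate 3 (others 1.04 to 1.07) and Cxcr4 at 5.21 on replicate 2 (others 3.85 to 4.19). In retina at site 2, low readings were found for Ccl4 at 9.63 on replicate 2 (others 11.1 to 11.6) and Il3 at 0.525 on replicate 2 (others 0.633 to 0.680). In cortex at site 2, a low reading was found for Cxcr4 at 4.18 on replicate 4 (others 4.96 to 5.25).

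The retina minus cortex difference itself differed between the sites, by limma's test of the change, for Ccl22, where the change in log2 difference was -1.10, and for Cd47, where it was -1.09. For Cd47 the 5 retina arrays were above the 5 cortex arrays at the first site and below them at site 2.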

How the results depend on the processing

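Of the 4412 values of named members over all alternatives, 171 fell below the criteria for a call and 22 came past them. A change of sign was counted only where the value was called in either fit, and 0 were found. Many of the alternatives could hardly give one. Leaving out an array of the other site leaves the difference as it was. The replicate block and the fit of only the contrast's groups change its spread more than its size. The balance at site 2, 26 members higher and 34 lower in retina, turned to 29 and 26 with quantile normalization and to 19 and 17 with low values raised to the 25th percentile. With no minimum fold, members higher and lower in retina numbered 60 and 49 at the first site and 44 and 68 at site 2, members called at both sites 85, members whose difference changed between sites 6, and members that differed between sites 85 in retina and 91 in cortex; the lower criterion itself adds these. With values under the 25th percentile raised to it, members lower in retina at site 2 numbered 17, and members that differed between sites 1 in retina and 3 in cortex, which removes differences among dim probes. With quantile normalization, 1 member changed its difference between sites and 5 differed between sites in cortex, and with only the groups of the contrast fitted, 7 differed in cortex; the cause was not tested. Leaving out each array in turn gave 26 to 31 members higher and 22 to 26 lower in retina at the first site, 23 to 26 and 29 to 36 at site 2, and 41 to 44 called at both. It gave 2 to 4 for the change between sites, 5 to 9 for retina between sites and 11 to 21 for cortex between sites. With the replicate number as a block the same counts were 30, 24, 26, 34, 44, 2, 6 and 16. The numbers do not pair the arrays, and among the named members' values the block ended the site 2 call of Il18rap (-1.07, limma adjusted p = 0.0544) and added one for Stat4 (-2.06, limma adjusted p = 0.0428). No detection call was used, so differences of the 68 dim members have a limit set by an unknown background.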
